A study of Mus musculus with 50 samples.

Results

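CpG-dense clusters inside gene bodies were examined in the soleus, a slow postural muscle of the lower leg, of mice with and without the DNA methyltransferase gene Dnmt3a in muscle. A cluster was a run of CpGs spaced no more than 100 bp apart. Clusters entered when the run held 30 CpGs or more, when none of its measured CpGs lay in a promoter and when at least 1 lay in a gene body. Of 51038 clusters, 3009 met this rule, and they carried 21260 of the 205304 CpGs measured. Methylation was read by reduced representation bisulfite sequencing (RRBS), in which the enzyme MspI cuts at CCGG and bisulfite leaves methylated cytosines unconverted. The methylation level is the percentage of calls over a CpG, or over all measured CpGs of a cluster, in which the cytosine was methylated.

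All mice were of the C57BL/6 background, were 12 weeks old and, per the study's methods, had exon 19 of Dnmt3a flanked by loxP sites. The controls (WT) carried no Cre. The knockouts (KO) also carried a Cre transgene under the muscle creatine kinase promoter. This promoter turns on late in muscle differentiation, so satellite cells and the non-muscle cells of the tissue presumably kept the gene. Both genotypes held females and males, which were killed either 10, 30 or 60 min after 30 min of treadmill running or after rest on a sham treadmill. Counts were at hand for 44 of 50 listed samples. The rested groups and the groups killed after 10 min held 5 WT and 5 KO samples each. After 30 min there were 5 WT and 7 KO samples, and after 60 min 6 of each genotype. A sample held between 12819404 and 41285655 methylation calls, of which 1184026 to 3787950 fell in the CpG-dense gene body clusters, and the median cluster and sample had 402 calls. A whole muscle is a mixture of cell types, so a lower level in every nucleus and a smaller share of nuclei with a methylated site could not be told apart.

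DNMT3A and its relative DNMT3B place methyl groups on unmethylated CpGs, whereas DNMT1 copies existing methylation after DNA replication. Most CpGs of the genome are methylated, and the dense runs called CpG islands, many of them at transcription starts, are usually kept free of methylation. CpG-dense runs inside genes are of mixed kind: some hold alternative transcription starts, some are coding exons of developmental regulators, and others are repeats.

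Stretches of 7 of the clusters are shown from the GRCm38 (mm10) genome, plus strand, with the measured CpGs in capitals and all other bases in lower case. They show the differing make-up of 5 clusters with the lowest p for genotype, beside another cluster of Pax7 and one of Bahcc1 that were almost unmethylated. The Unc45b stretch holds short tandem copies, and the Orai1 stretch is coding.
Unc45b, chr11:82930648-82930854, intron: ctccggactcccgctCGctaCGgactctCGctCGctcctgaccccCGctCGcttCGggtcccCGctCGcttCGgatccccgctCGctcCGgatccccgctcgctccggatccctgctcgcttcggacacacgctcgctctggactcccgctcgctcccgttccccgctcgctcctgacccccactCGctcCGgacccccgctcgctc
Tbc1d1, chr5:64229857-64230036, intron: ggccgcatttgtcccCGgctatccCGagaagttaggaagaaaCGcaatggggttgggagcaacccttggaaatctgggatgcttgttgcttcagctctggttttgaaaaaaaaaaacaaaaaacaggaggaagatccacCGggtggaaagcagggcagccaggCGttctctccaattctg
Pax7 (first cluster), chr4:139828365-139828554, intron: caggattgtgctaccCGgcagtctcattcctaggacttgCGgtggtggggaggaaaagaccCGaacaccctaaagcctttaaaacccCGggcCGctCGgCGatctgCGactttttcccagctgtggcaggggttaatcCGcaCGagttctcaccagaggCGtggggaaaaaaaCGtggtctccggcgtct
Zmynd8, chr2:165885744-165885844, intron: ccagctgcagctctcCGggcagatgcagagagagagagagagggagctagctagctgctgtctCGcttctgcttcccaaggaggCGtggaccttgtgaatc
Orai1, chr5:123029512-123029631, coding exon: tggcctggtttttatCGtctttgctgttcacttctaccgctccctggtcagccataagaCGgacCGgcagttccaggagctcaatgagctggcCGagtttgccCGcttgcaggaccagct
Pax7 (cluster with 135 CpGs), chr4:139821486-139821725, intron: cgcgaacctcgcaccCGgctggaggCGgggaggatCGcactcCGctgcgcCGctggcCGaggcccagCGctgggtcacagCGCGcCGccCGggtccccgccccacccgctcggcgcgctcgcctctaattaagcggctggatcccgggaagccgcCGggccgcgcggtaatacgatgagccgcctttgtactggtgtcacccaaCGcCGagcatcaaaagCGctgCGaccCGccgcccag
Bahcc1, chr11:120234549-120234744, intron: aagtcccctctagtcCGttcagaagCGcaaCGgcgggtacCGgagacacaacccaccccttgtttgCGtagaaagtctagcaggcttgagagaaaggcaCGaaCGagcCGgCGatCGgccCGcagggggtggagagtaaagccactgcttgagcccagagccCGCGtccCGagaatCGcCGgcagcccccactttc

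The clusters lay in 2342 genes, and 451 genes held 2 or more of them. A cluster had a median of 58 CpGs (30 to 490), of which RRBS measured a median of 5 (1 to 50). In 410 clusters 1 CpG was measured, so their level stood for a single site. At the threshold, 98 clusters had exactly 30 CpGs and a median level of 45.5%, whereas the 123 gene body clusters with 29 CpGs, just outside, had 51.2%.

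The runs were long and GC rich. Their median length was 1128 bp, their median GC content 59.5% and their median ratio of observed to expected CpGs 0.64, compared with 0.76 in the 8645 clusters of 30 or more CpGs that held promoter CpGs. Of the 3009 clusters, 1707 (56.7%) passed a common definition of a CpG island over the whole run (200 bp or more, GC of 50% or more, ratio of 0.6 or more), against 88.0% of the promoter clusters and 4.89% of gene body clusters with fewer CpGs. The measured CpGs lay in introns in 1304 clusters, in coding exons in 1055, in untranslated parts of exons in 428 and in other exons in 191, and were mixed in 31.

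Many clusters outside the annotated promoters lay near a transcription start. In a later GENCODE release (M21), 1537 clusters (51.1%) had a measured CpG within 1000 bp of a transcript start, and in 241 of these the nearest start belonged to a gene other than the one named for the gene body. Clusters near a start had a median WT level of 1.38%, whereas the 1472 clusters farther away had a median WT level of 35.6%. The plot of level against distance shows the low clusters piled up near a start.

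**Figure D1:**
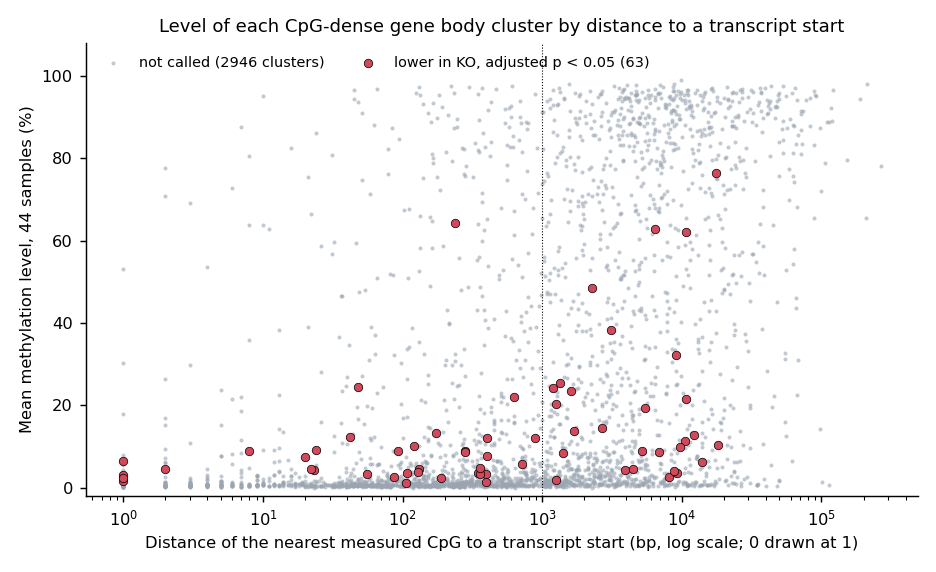
Mean methylation level over 44 samples (%, vertical axis) of each of the 3009 clusters against the distance in bp from its nearest measured CpG to a transcript start (log scale, with 0 drawn at 1). The dotted line marks 1000 bp, and red points are the 63 clusters with adjusted p < 0.05 for genotype, 35 of them within 1000 bp.

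Most clusters were either low or high in methylation. The mean level over all samples was under 10% in 1724 clusters (57.3%), between 10 and 50% in 518 and over 50% in 767. Promoter clusters of the same density were under 10% in 95.5% of cases, and gene body clusters with fewer CpGs in 7.48%. Runs with more CpGs were less methylated, with a median WT level of 47.2% for 30 to 39 CpGs, 18.4% for 40 to 59, 1.87% for 60 to 99 and 1.18% for 100 or more. After Unc45b the runs with the most CpGs were those of Bahcc1 (400 CpGs, 0.77% ± 0.55 in WT, SD, n = 21) and Ing1, which codes for a chromatin reader (364 CpGs, 0.31% ± 0.38 in WT).

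A small set of highly methylated clusters consisted of repeated sequence. In 94 clusters more than 50% of the run was repeat masked, and their median level was 90.0%. The intronic cluster of Elp4 (94.7% masked, 89.2% ± 6.07 in WT) was of this kind. Of the 94, 0 differed between genotypes at an adjusted p under 0.05 (edgeR quasi-likelihood test, as for all adjusted p-values below unless another is named), where 1.09% of all clusters did.

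Internal copies were looked for by comparing each base of a run with the base 5 to 100 positions further on. At the best shift the median cluster matched at 31.4% of its bases, and 25 clusters matched at 50% or more. Only bases with a partner inside the run were compared, so a short run can match highly without holding copies. The run of Gdnf, for example, had 104 bases and matched at 75.0% with a shift of 96. The shift was 84 bases in 13 of these 25, all in coding exons, among them those of Zscan2, Rbak, Zfp27 and Mzf1, which code for proteins with tandem zinc fingers. Most of these exons were heavily methylated, with 98.1% ± 3.92 at Zfp27, 97.8% ± 3.00 at Rbak and 81.2% ± 4.20 at Zscan2 in WT, and the lowest was Mzf1 with 42.5% ± 9.70. The KO levels were 97.5% ± 3.90, 97.3% ± 3.47, 78.2% ± 5.22 and 44.5% ± 6.86, each within 1 SD of the WT mean. The cluster of Unc45b ranked 3 of 3009 by this measure, with a shift of 17 bases at which 78.7% of its 3551 bases matched. Among the 25 it was the 1 that differed between genotypes at an adjusted p under 0.05. The share called was 2.09% over the 3009 and 1.09% over all clusters.

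The comparison of genotypes asked where methylation in muscle depended on DNMT3A. In 63 of the 3009 clusters (2.09%) the KO level differed from WT at an adjusted p under 0.05, and in all 63 it was lower. Over all 51038 clusters 557 were called (1.09%), of which 554 were lower in KO (1.09%) and 3 were higher (0.00588%). The share was 1.16% (100 of 8645) in CpG-dense promoter clusters, 1.41% (26 of 1849) in CpG-dense clusters with no gene CpGs and 1.36% (227 of 16748) in gene body clusters with fewer CpGs. The difference between these shares was not tested. The test modeled methylated and unmethylated counts in each sample with a negative binomial distribution, and the adjusted p is the Benjamini-Hochberg value over all 51038 clusters. A quasi-binomial model called 129 of the 3009 (4.29%), where it called 2.68% of all 51038 clusters. The likelihood ratio test of edgeR called 134 of the 3009 and 2.77% of all clusters, and limma 92 and 1.75%.

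The 63 called clusters lay in 59 genes. Their median WT level was 14.3% (1.87 to 84.9%) and their median KO level 2.81% (0.44 to 68.8%), with a median difference of -9.14 points (-27.3 to -1.43). The WT level was under 10% in 27, between 10 and 50% in 30 and over 50% in 6. In 34 of the 63, all 23 KO samples lay below the WT mean. The KO mean was lower than the WT mean in females in all 63 and in males in all 63, and at each of the 4 times in 62. These counts describe clusters chosen by the same contrast. The clusters nearest the threshold were those of Wnt5a (adjusted p = 0.046) and Kifc3 (adjusted p = 0.046) inside it and Sept9 and Pde4a (adjusted p = 0.051 for both) outside it.

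**Figure D2:**
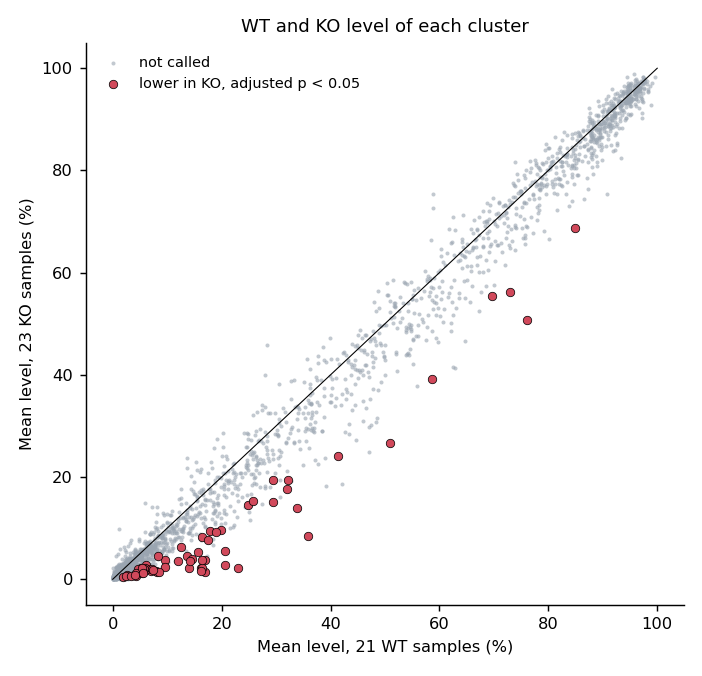
Mean level in 23 KO samples (%, vertical axis) against mean level in 21 WT samples (%, horizontal axis) of each of the 3009 clusters, with the line of equal levels. The 63 red points, called at adjusted p < 0.05, lie below the line, 6 of them with a WT level over 50%.

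The share of called clusters varied with the level. Binned by the mean over all samples, 0 of the 801 clusters with 0 to 1% were called, and the share was 3.38% for 1 to 5%, 6.57% for 5 to 10%, 5.67% for 10 to 20%, 3.09% for 20 to 50%, 1.26% for 50 to 80% and 0 of 449 above 80%. In all other clusters of the series the shares in the same bins were 0.088%, 2.34%, 3.84%, 3.20%, 1.38%, 0.939% and 0.198%. A cluster under 1% had little level to lose, and the KO samples entered the mean used for the bins. These shares are a description only, and the part of read number in them was not tested. Of the 1537 clusters within 1000 bp of a transcript start 35 were called, and of the 1472 farther away 28 were. Of the 35, the nearest start belonged to the named gene in 30. Introns held 32 of the called clusters (2.45% of intronic clusters), coding exons 18 (1.71%), untranslated exon parts 7 (1.64%) and other exons 5 (2.62%). The mixed clusters held 1 (3.23%), and 2.09% of all 3009 were called. The share was 0.488% among clusters with 1 measured CpG and 3.56% among those with 10 or more.

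Over the 2946 clusters that were not called, the median difference was -0.28 points and 64.4% had a lower mean in KO. Over all 3009 clusters the median difference was -0.30 points and 65.1% had a lower mean in KO, compared with -0.46 points and 62.4% over all clusters of the series. With the called ones included, 354 of the 3009 (11.8%) had an unadjusted p under 0.05 (edgeR), 316 lower and 38 higher in KO. Over all clusters of the series, called ones included, the share was 9.56%. Among the 2946 clusters not called, 291 (9.88%) had such a p. The lowest adjusted p of a cluster higher in KO was 0.147. The unweighted mean over the clusters was 26.8% ± 0.78 in WT (n = 21) and 25.5% ± 0.73 in KO (n = 23). Each of the 23 KO samples lay below the WT mean, although the groups overlapped, with WT samples from 25.3 to 27.9% and KO samples from 24.1 to 26.8%. When the counts were pooled instead, so that clusters with many reads weighed more, the level was 15.1% ± 2.43 in WT and 14.3% ± 2.20 in KO, and the difference of -0.87 points was smaller than the spread between samples. The pooled difference, KO minus WT, was 0.14 points in rested mice and 0.39 points after 10 min. It was -1.89 points after 30 min and -1.81 points after 60 min. The pooled level over all clusters of the series had the same signs, with differences of 0.71, 1.88, -2.40 and -2.15 points from rest to 60 min. The unweighted mean over the 3009 clusters was lower in KO at each time, with differences of -0.99, -0.89, -1.56 and -1.57 points. Over all times it differed by -1.26 points. The unweighted mean over all clusters of the series differed by -1.46 points, with 18 of 23 KO samples below the WT mean. For CpG-dense promoter clusters the values were -0.27 points and 23 of 23. For CpG-dense clusters with no gene CpGs they were -0.70 points and 20 of 23.

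**Figure D3:**
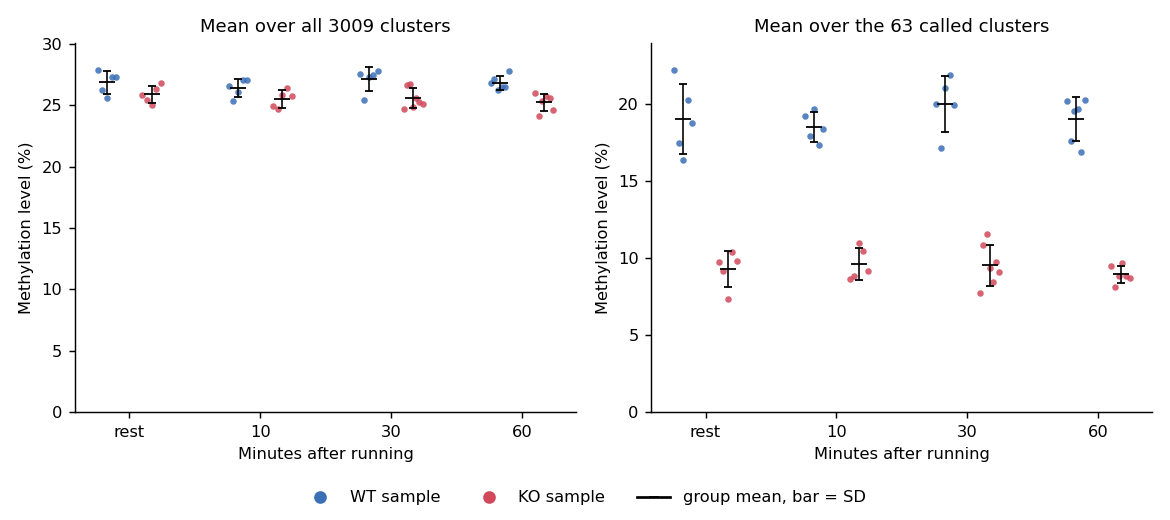
Mean methylation level (%, vertical axis) over all 3009 clusters (left) and over the 63 called clusters (right) in each sample, by minutes after running and genotype, with group means ± SD. In the left panel WT group means run from 26.4 to 27.1% and KO group means from 25.2 to 25.9%, and the wide gap in the right panel was set by the choice of clusters.

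Unc45b (ENSMUSG00000018845) codes for a chaperone that folds the myosin head and is needed to build the sarcomere. Its intronic cluster (chr11:82930663-82931985) had the most CpGs of all 3009, 490, of which 33 were measured. The WT samples ranged from 3.69 to 33.2% (median 17.1%) and the KO samples from 0.41 to 3.62% (median 1.38%). Every KO sample lay below every WT sample. Such a separation was seen in 1 of the 3009 clusters and in 4 of all 51038 (0.00784%). The means were 16.1% ± 7.74 in WT and 1.57% ± 0.78 in KO, the log2 odds ratio (log2 of methylated over unmethylated counts, KO minus WT) was -3.57, SE 0.30, and the adjusted p was 1.6e-10. Of the 33 CpGs, 32 were lower in KO, and the WT level of single CpGs ran from 0.52 to 41.6%, against 0.028 to 3.91% in KO. The measured CpGs fell into blocks, and those printed above, at one end, held the highest WT levels. Reads of 75 bp can match more than 1 of the copies, and the part of this in the values was not tested.

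Tbc1d1 (ENSMUSG00000029174), a Rab GTPase-activating protein that acts downstream of insulin and AMPK in glucose uptake, held 2 intronic clusters, both within 1000 bp of a start of the gene. The cluster at chr5:64229872-64230678, 278 bp from a start, ranged from 3.52 to 23.3% (median 13.0%) in WT and from 0.65 to 7.56% (median 3.39%) in KO. The groups overlapped, and all 23 KO samples lay below the WT mean. The means were 14.3% ± 5.61 and 3.55% ± 1.97 (log2 odds ratio -2.25, SE 0.28, adjusted p = 3.3e-06). At the other cluster (chr5:64159425-64161104), 7 bp from a start, the means were 4.66% ± 2.81 and 2.78% ± 1.79, and the difference did not pass (adjusted p = 0.51).

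Pax7 (ENSMUSG00000028736), the homeobox factor that marks muscle satellite cells, held 3 intronic clusters that differed among themselves. At the first (chr4:139828380-139828539) WT samples ranged from 1.94 to 18.5% (median 7.79%) and KO samples from 0 to 4.81% (median 0.98%). The groups overlapped, and the means were 8.20% ± 4.76 and 1.36% ± 1.20 (adjusted p = 1e-05). At the second (chr4:139823681-139824208) the means were 6.37% ± 3.49 and 2.03% ± 1.35 (adjusted p = 0.0045), and all 17 measured CpGs were lower in KO. The remaining one, with the most CpGs (chr4:139821501-139821716, 135 CpGs), was almost free of methylation in both genotypes, at 0.85% ± 0.97 and 0.74% ± 0.90 (adjusted p = 0.94). The printed stretch of the first holds 14 CpGs and that of the remaining one 36.

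Zmynd8 and Pcgf2 held the 2 called clusters among 22 in genes of DNA methylation and chromatin regulators (1.09% of all clusters were called). ZMYND8 reads histone marks, and PCGF2 is a subunit of Polycomb repressive complex 1. At Zmynd8 (chr2:165885759-165885828, intron, 30 CpGs, 3 measured) WT samples ranged from 4.82 to 43.5% (median 19.1%) and KO samples from 0 to 8.56% (median 0.82%). All 23 KO samples lay below the WT mean. The means were 23.0% ± 12.0 and 2.12% ± 2.60 (log2 odds ratio -4.28, SE 0.58, adjusted p = 1.3e-05). At Pcgf2 (217 CpGs, 15 measured) they were 5.94% ± 3.15 and 2.16% ± 0.88 (adjusted p = 0.0056). The median difference over the 22 was -0.34 points, and 14 had a WT level under 10%, among them those of Dnmt1, Tet1 and Ezh2. Dnmt3a itself held 1 cluster, in an intron, with 18.5% ± 16.7 in WT and 6.62% ± 11.5 in KO (adjusted p = 0.13). The values there do not check the deletion of the floxed exon.

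**Figure D4:**
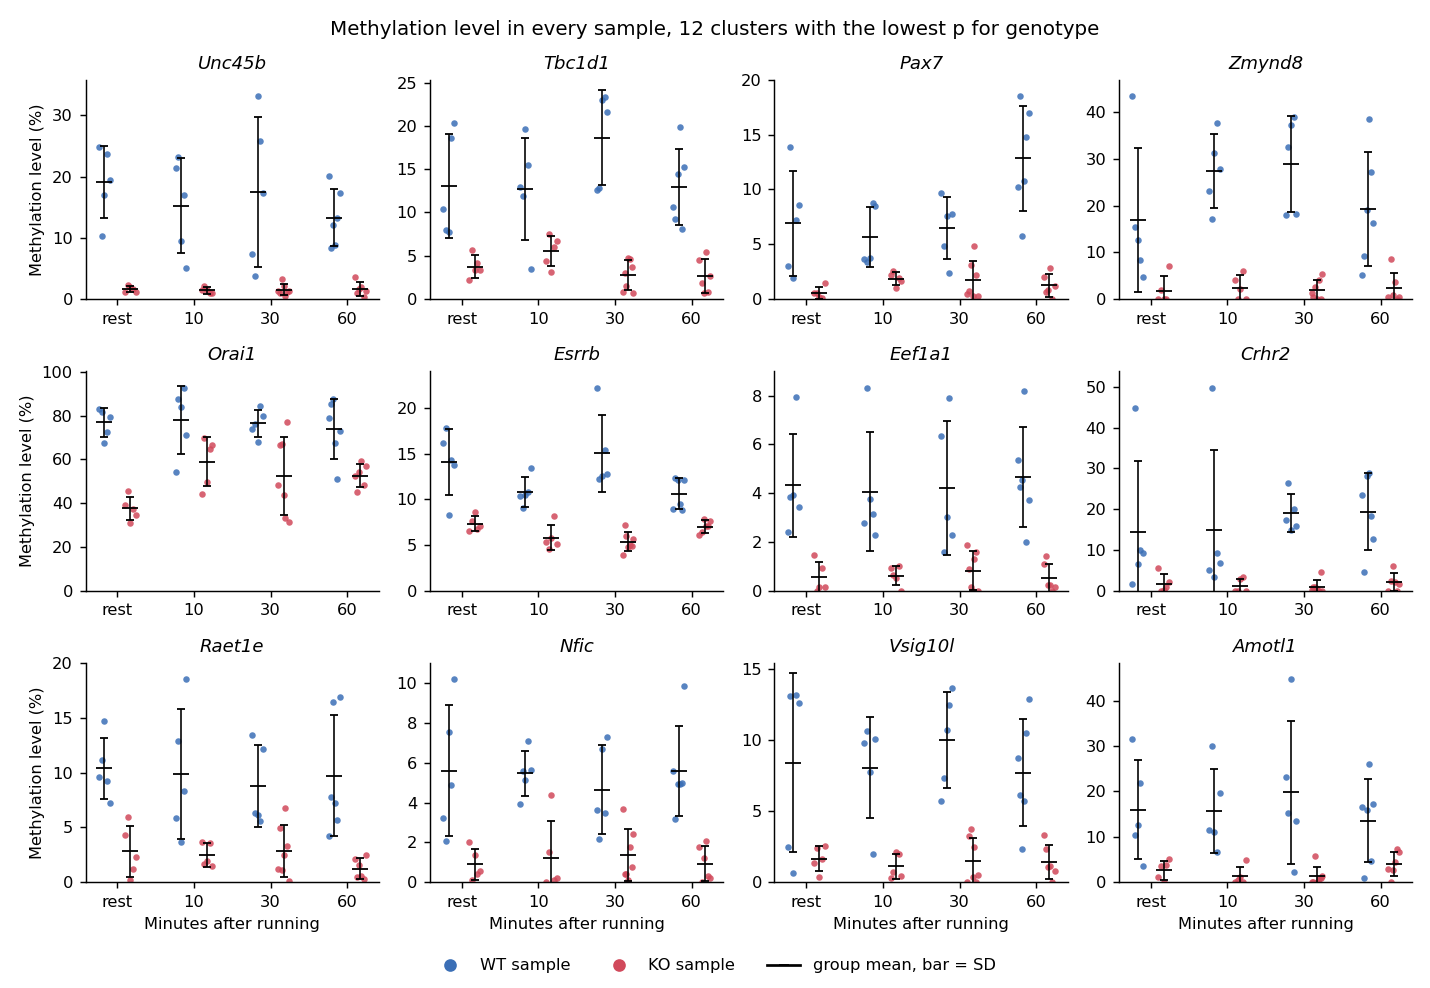
Methylation level (%, vertical axis) in each sample at the 12 clusters with the lowest p for genotype, by minutes after running, WT in blue and KO in red, with group means ± SD (bars cut at 0). At Unc45b all KO samples are at or under 3.62% and all WT samples at or above 3.69%, and in the other panels the genotypes overlap when all times are pooled.

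Orai1 (ENSMUSG00000049686) codes for the pore of the store-operated calcium channel of the plasma membrane. It held the 1 called cluster of 19 in genes of excitation-contraction coupling and ion channels (1.09% of all clusters were called). In its coding exon (chr5:123029527-123029615) WT samples ranged from 51.0 to 92.8% (median 79.1%) and KO samples from 31.1 to 77.1% (median 48.4%). The groups overlapped, with 22 of 23 KO samples below the WT mean. The means were 76.2% ± 10.6 and 50.7% ± 13.4 (log2 odds ratio -1.78, SE 0.27, adjusted p = 0.00012), and all 5 CpGs were lower in KO, with differences from -41.9 to -8.16 points. Ryr1, the calcium release channel of the sarcoplasmic reticulum, held 3 clusters, with 46.4% ± 27.1 in WT and 33.6% ± 13.6 in KO at an intronic one, 45.4% ± 15.5 and 40.5% ± 14.5 at a coding one and 10.0% ± 6.42 and 7.17% ± 7.34 at another coding one (adjusted p = 0.74, 0.88 and 0.62). The median difference of the 19 was -1.45 points, at Jph2, a junction protein of the triad.

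The remaining clusters of the 12 were of several kinds. At Esrrb, an orphan nuclear receptor, the run of 133 CpGs had 12.5% ± 3.38 in WT and 6.32% ± 1.27 in KO (adjusted p = 0.00013), and the CpG with the highest WT level, 48.4%, lay at one end. At Eef1a1, a translation elongation factor, the level fell from 4.33% ± 2.17 to 0.64% ± 0.60 (adjusted p = 0.00013). At Crhr2, the receptor of urocortins, WT samples ranged from 1.65 to 49.9% (median 14.9%) and KO samples from 0 to 6.04% (median 0.83%). The means were 17.0% ± 13.0 in WT and 1.48% ± 1.88 in KO (adjusted p = 0.00015). Those at Raet1e, Nfic, Vsig10l and Amotl1 had WT means from 5.33 to 16.1% and KO means from 1.12 to 2.33%. The call at Nfic was lost when CpGs needed 20 or more reads in every sample (edgeR, adjusted p = 0.087).

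**Figure D5:**
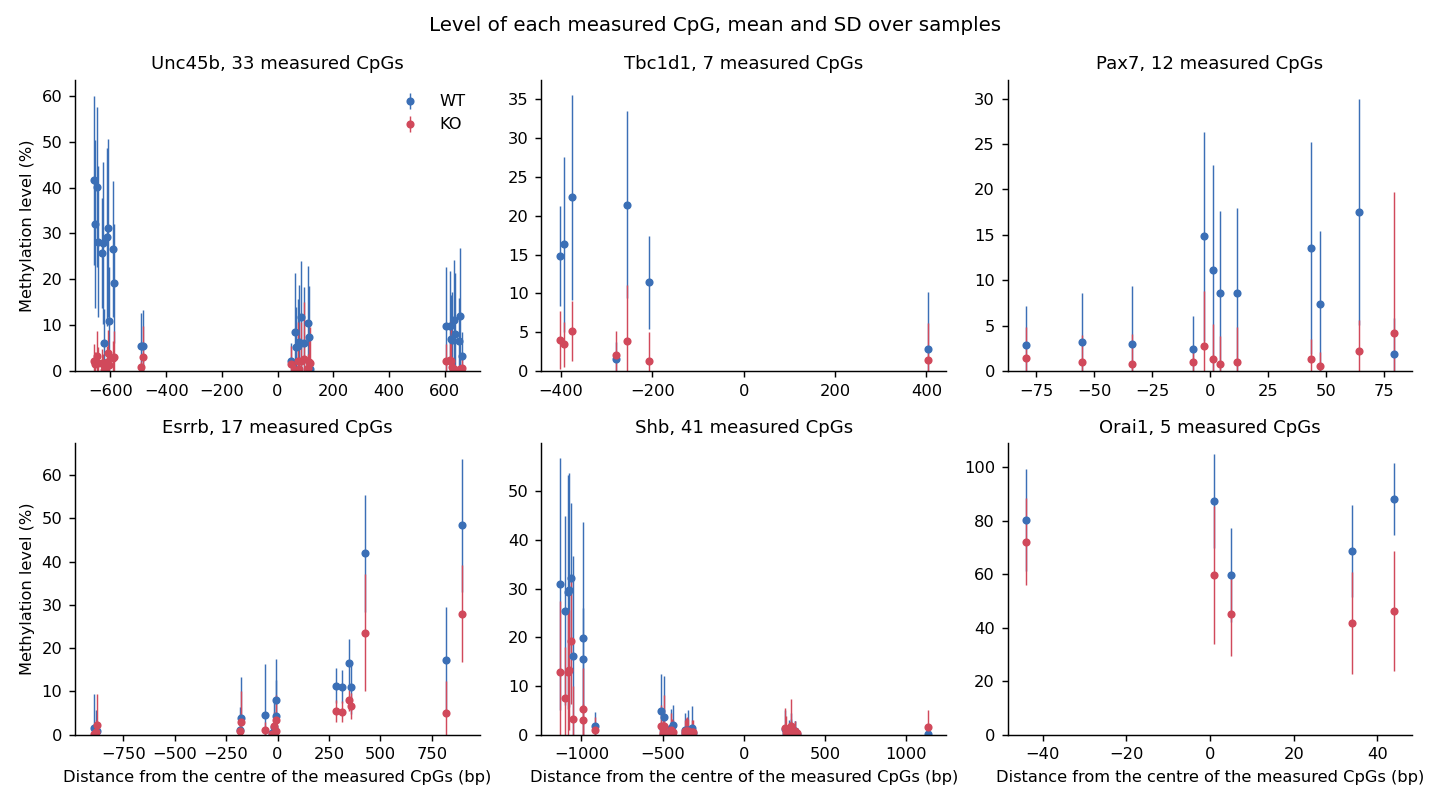
Level of each measured CpG (%, mean and SD over 21 WT samples in blue and 23 KO samples in red) against its distance in bp from the centre of the measured CpGs, in 6 called clusters (bars cut at 0). In Unc45b the CpGs on the left reach 41.6% in WT and none exceeds 3.91% in KO, and in Shb the wide gaps lie at one end of the run.

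Within the called clusters most measured CpGs were lower in KO. Of 642 measured CpGs, 565 had a lower mean in KO, and in 40 of the 63 clusters every measured CpG did. In the long run of Shb, an adaptor protein (254 CpGs, 41 measured), 22 CpGs were lower and the single-CpG differences ran from -18.0 to 1.46 points. These CpGs belonged to clusters chosen by the same contrast, and CpGs of 1 cluster often share reads.

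Large differences were also found in clusters with few measured sites. The largest was in H13, an imprinted gene for a signal peptide peptidase, where 1 CpG was measured (chr2:152707392): the WT median was 30.4% and the KO median 6.41%. The means were 35.8% ± 20.0 and 8.52% ± 7.99 (adjusted p = 0.0042), and single samples had as few as 8 calls. Tcirg1, Wbp1l, Ltbp3 and Adgra2, with 1 or 2 measured CpGs each, differed by -23.5, -22.1, -21.4 and -21.0 points without passing (adjusted p = 0.069, 0.053, 0.052 and 0.15). On the opposite side Cdc6 had 6.01% ± 9.18 in WT and 14.9% ± 18.7 in KO (adjusted p = 0.81) and Gprin1 1.10% ± 3.60 and 9.82% ± 19.1 (adjusted p = 0.66), each with SDs above the means. The largest spread over all samples was at Smarca2, Noct and Ctdspl, each with 1 measured CpG. At Smarca2, a chromatin remodeler, the means were 28.3% ± 32.1 and 45.9% ± 34.3 (adjusted p = 0.64).

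At the other extreme, some clusters had nearly the same mean in both genotypes. The smallest differences in each level class were those of Foxn3 (0.57% ± 0.50 and 0.57% ± 0.42) and Rbpj (0.44% ± 0.59 and 0.44% ± 0.44), of Trp53i13 (19.8% ± 9.96 and 19.8% ± 6.85) and Crb2 (33.9% ± 18.4 and 33.9% ± 16.8), and of Fgf22 (63.8% ± 8.76 and 63.8% ± 7.21) and Pik3r2 (96.5% ± 6.77 and 96.5% ± 7.15). They covered the whole range of levels.

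Among the myogenic regulatory and Mef2 factors, 11 clusters in 6 genes were measured and 4 fell, 2 of Pax7, 1 of Mef2c and 1 of Casz1 (1.09% of all clusters of the series were called). Mef2c, a MADS-box activator of muscle genes, had 16.3% ± 14.1 in WT and 2.10% ± 2.05 in KO (adjusted p = 0.00085), with all 23 KO samples below the WT mean. Casz1, a zinc finger factor, held 3 clusters. The coding one (156 CpGs, 7 measured) went from 50.9% ± 15.1 to 26.6% ± 15.6 (adjusted p = 0.0094). The others had 29.2% ± 17.6 and 15.5% ± 8.32 (adjusted p = 0.25) and 1.00% ± 2.51 and 0.53% ± 1.45 (adjusted p = 0.82). The 1 cluster of Pax3 was under 2% in both genotypes. The median difference over the 11 was -4.34 points, which is the value of the second Pax7 cluster (-0.46 points over all clusters of the series). The genes were chosen with earlier results of these data known, and the clusters of Pax7 and Casz1 are counted again among homeobox and zinc finger genes, so these values are a description only.

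Sarcomere and cytoskeleton genes held 41 clusters in 26 genes, of which 2 fell, those of Unc45b and Obsl1, where 1.09% of all clusters were called. Obsl1, a cytoskeletal linker related to obscurin, had 17.5% ± 7.01 in WT and 7.74% ± 3.70 in KO at its called intronic cluster (adjusted p = 0.0046), and a coding cluster of the gene differed by 0.60 points. Speg, a kinase of striated muscle, held 4 coding clusters, with 17.3% ± 16.1 in WT and 4.57% ± 4.07 in KO (adjusted p = 0.16), 38.8% ± 9.11 and 31.8% ± 6.98, 83.5% ± 7.09 and 82.7% ± 7.84, and 90.7% ± 5.57 and 91.1% ± 5.77. The 3 clusters of Ttn, the giant spring protein of the sarcomere, were coding, had WT means from 72.0 to 85.9% and differed by -0.19 to 1.34 points. Myh3, the embryonic myosin, had 18.5% ± 12.6 in WT and 25.6% ± 9.60 in KO (adjusted p = 0.52). The median difference of the 41 was -0.65 points.

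The Hox genes, which set position along the body axis, held 20 clusters in 13 genes and 0 were called by the quasi-likelihood test, where 1.09% of all clusters and 2.09% of the 3009 were called, so a count of 0 in 20 is near the background. Their WT means ran from 0.51 to 27.9% with a median of 7.27%, and 13 of the 20 had a lower mean in KO, with a median difference of -0.77 points. The largest difference was at Hoxc4 (26.4% ± 8.37 and 18.6% ± 7.94, adjusted p = 0.23). Hoxd11, with the most CpGs (198), had 5.70% ± 2.39 and 6.02% ± 2.66. Hoxb3 (10.9% ± 13.5 and 13.4% ± 10.6), Hoxa9 (6.54% ± 8.00 and 5.43% ± 4.75) and Hoxa7 (2.03% ± 5.17 and 1.73% ± 3.41) had differences smaller than their SDs.

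Other homeobox genes held 150 clusters in 91 genes, and 4 were called, those of Pou4f1 and Pbx2 and the 2 of Pax7, where 1.09% of all clusters and 2.09% of the 3009 were called. In 123 of the 150 the WT level was under 10%, and the median difference was -0.32 points. T-box, Sox, Gata, Fox and bHLH factors held 65 clusters, of which Sim2, Ebf3, Foxo6 and Foxp4 fell. Signalling ligands, receptors and antagonists held 67, of which 2 of Wnt5a, 1 of Fgfr2 and 1 of Fgfr1 fell. The one named for Fgfr2 lay near a start of another gene, Tacc2. Zinc finger developmental factors held 47, of which the coding one of Casz1 fell, beside the same 1.09% of all clusters.

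Imprinted genes, which are methylated on 1 parental copy at their control regions, held 18 clusters in 11 genes. Several of these had intermediate levels in both genotypes, as at Grb10 (36.6% ± 21.6 and 36.5% ± 21.6), Plagl1 (37.6% ± 14.3 and 39.0% ± 9.38), Igf2r (25.8% ± 17.2 and 32.2% ± 21.4) and Trappc9 (42.8% ± 13.7 and 37.2% ± 13.8). Of the 6 clusters of Gnas, the one with most CpGs (218) had 43.9% ± 14.2 and 46.0% ± 12.3, whereas the one at chr2:174330275-174330348 had 0.25% ± 0.48 and 0.35% ± 0.56. Igf2 had 0.99% ± 1.62 and 2.66% ± 2.82 at its largest cluster (adjusted p = 0.27). Of the 18, that of H13 was called (1.09% of all clusters were), and the median difference was -0.18 points.

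Genes of insulin, AMPK, glucose and lipid metabolism held 14 clusters in 12 genes, and 1 of Tbc1d1 fell (1.09% of all clusters were called). In 11 of the 14 the WT level was under 10%. Pik3r1, the regulatory subunit of PI3-kinase, had 7.37% ± 3.52 in WT and 3.59% ± 2.66 in KO (adjusted p = 0.079), and Srebf2, a regulator of sterol synthesis, 75.1% ± 6.26 and 68.8% ± 8.63 (adjusted p = 0.35). Acaca, Ldha, Pfkfb3 and Cpt1a lay under 3% in both genotypes. Neuromuscular junction genes held 7 clusters and clustered protocadherins 2, and 0 were called, beside 1.09% of all clusters, with median differences of -0.62 and 3.69 points.

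Markers of other cell types of muscle had few such clusters. Endothelial genes held 3, immune genes 1, fibroblast genes 5, Schwann cell genes 3, smooth muscle and pericyte genes 4 and adipocyte genes 1, and 0 of these were called, beside 1.09% of all clusters. Some had a lower mean in KO all the same. Of the 3 endothelial clusters 2 did, with a median difference over the 3 of -6.38 points. They were those of Esam, an adhesion molecule of endothelial junctions (18.2% ± 7.96 and 11.8% ± 5.58, adjusted p = 0.23), and Erg, an endothelial transcription factor (50.0% ± 14.1 and 42.9% ± 17.5, adjusted p = 0.70). The pericyte proteoglycan gene Cspg4 had 90.8% ± 8.44 and 75.4% ± 15.2 (adjusted p = 0.071). It was the lowest of the 4 smooth muscle and pericyte clusters, which differed by -15.4 to 0.63 points. Of these 4, 2 had a lower mean in KO, and their median difference was -1.66 points. The fibroblast clusters differed by -3.34 to 1.78 points, and those of the immune, Schwann cell and adipocyte genes by -0.29 to 0.52 points. Satellite cell markers held 3, all of Pax7. The levels of these clusters do not measure how many of each cell type a muscle held, and the part of cell make-up in the differences was not tested.

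A gene could hold both called and other clusters. Fgfr2 held 9, of which 1 fell, from 12.1% ± 7.51 to 3.51% ± 3.42 (adjusted p = 0.014), and this one lay 20 bp from a start of the gene Tacc2. Rara, the retinoic acid receptor, had 2 clusters, and both fell, from 5.60% ± 2.55 to 1.41% ± 1.16 and from 4.13% ± 2.95 to 0.80% ± 0.66. Of the 3 of Wnt5a 2 fell, from 7.45% ± 3.58 to 1.84% ± 1.25 and from 25.8% ± 7.59 to 15.2% ± 8.25. Both clusters of Raet1e fell. Gm20388 was named for 45 clusters, more than any other gene, with WT means from 0.57 to 95.3%. Of these 45, 0 were called, beside 2.09% of the 3009 and 1.09% of all clusters.

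The promoters of the same genes were compared where they held a cluster of 30 or more CpGs. Of the 63 called clusters, 31 lay in a gene with such a promoter cluster, 28 promoter clusters in all. Their median WT level was 0.79%, 23 of them were under 5%, and the median difference was -0.14 points. Of the 28, 1 was called, at Sim2, a bHLH factor, where the promoter cluster fell from 7.36% ± 3.27 to 2.38% ± 1.47 and the intronic cluster from 16.5% ± 9.64 to 3.75% ± 3.34. Over all genes with a CpG-dense gene body cluster, 14 of 1142 such promoter clusters were called. The share was 1.16% over all 8645 CpG-dense promoter clusters and 1.09% over all clusters of the series.

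The comparison of times asked whether a single bout of running altered these levels within an hour. Of the 3009 clusters, 0 were called for time by the edgeR quasi-likelihood test over the 3 times after running and rest (0.0% of all clusters). At an unadjusted p under 0.05 there were 100 clusters (3.32%, against 2.86% of all clusters). The quasi-binomial model called 0 and had 171 at an unadjusted p under 0.05, and the likelihood ratio test (0.0196% of all clusters) and limma also called 0. Each time against rest called 0 too in the edgeR fit. Samples numbered 1 to 25 were those at rest and at 60 min and samples 26 to 50 those at 10 and 30 min, so the comparisons of 10 and 30 min with rest and the numbering cannot be told apart. At an unadjusted p under 0.05 there were 132 of the 3009 after 10 min (4.39%, against 3.89% of all clusters). There were 94 after 30 min (3.12%, against 2.95%) and 113 after 60 min (3.76%, against 3.54%). The lowest unadjusted p in the edgeR fit was 0.00081, at Rai1, where every group mean was under 2%. Daxx, a histone chaperone, came next (edgeR, unadjusted p = 0.0031). In order of time from rest, its WT means were 38.4% ± 11.3, 21.5% ± 11.6, 56.0% ± 18.9 and 35.6% ± 17.8, and its KO means were 53.0% ± 6.64, 34.8% ± 13.7, 49.8% ± 12.1 and 35.9% ± 11.2. Elp4 (edgeR, unadjusted p = 0.0053) had its lowest group mean in WT at 30 min, 81.3% ± 5.57. The adjusted p was 1 for each of these.

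The interaction asked whether the response to running differed between genotypes, and 0 of the 3009 clusters were called by edgeR (0.0% of all clusters). An unadjusted p under 0.05 was seen in 106 (3.52%, against 2.74% of all clusters), and the quasi-binomial model called 0 and had 130 at an unadjusted p under 0.05. The likelihood ratio test called 0 (0.0137% of all clusters), and so did limma. The lowest p in the edgeR fit was 0.00039, at Fat3, an atypical cadherin, with group means from 0.070 to 2.54%. Foxl2, a forkhead factor, came next (edgeR, unadjusted p = 0.0013). Its WT means were 7.09% ± 3.11, 7.56% ± 1.28, 4.97% ± 2.33 and 4.92% ± 2.79 from rest to 60 min and its KO means 1.14% ± 0.52, 2.99% ± 0.88, 5.82% ± 3.59 and 5.35% ± 2.48. The adjusted p was 1.0 for both of these.

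Very high read depth marked the clusters of Zc3h7a and Cdk8, with medians of 25428 and 18780 calls per sample. Their levels were 8.97% ± 1.98 in WT and 7.98% ± 1.62 in KO, and 9.01% ± 2.02 in WT and 8.64% ± 2.25 in KO. They entered the pooled level with the weight of those reads.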

How the data were processed

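RRBS was carried out on soleus muscle of WT and KO mice. The authors deposited, for each CpG and sample, counts of methylated and unmethylated reads, not normalized. Per the methods and the submitters' processing notes, 75-bp single-end reads were trimmed with Trim Galore 0.4.0 (cutadapt 1.9.1) in RRBS mode and aligned to mm10 with Bismark 0.18.1. Samples with too few aligned reads were dropped, strands were added, and a CpG was kept where no sample had under 8 reads, so sites that any sample covered thinly are missing. CpGs on the X, Y and mitochondrial chromosomes were left out by the authors. Promoters spanned 3000 bp before to 1000 bp after a start in GENCODE M15, and CpGs no more than 100 bp apart formed a cluster.

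Counts were summed over the CpGs of a cluster. The deposited counts were tested with edgeR 4.0.16 (R 4.3.3), by a quasi-likelihood F test with a coefficient per sample and a methylation term for each of 8 groups, on all 51038 clusters, with Benjamini-Hochberg adjustment. The genotype effect was averaged over the 4 times. Alternatives were edgeR's likelihood ratio test, a quasi-binomial model, limma 3.58.1 on log2 ratios (pseudocount 1), a minimum of 20 reads, sex as a term, a filter on the pooled level, subsets of samples and other CpG minimums. The scripts were tested on simulated data. P-values measure the spread between these samples, and which samples shared a litter is not given in the sources used here. No pair of samples was alike within sampling noise (mean chi-square per cluster between 2 samples from 7.45 to 21.6), so all were counted as separate libraries. Sequence came from GRCm38 and transcript starts from GENCODE M21, and the CpG number in the table equalled that of the run in GRCm38 in 95.0% of the clusters. Clusters were named after the gene in the gene body column of the table. Python 3.11.15, numpy 2.4.6, pandas 2.3.3 and matplotlib 3.10.9 were used.

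The clusters and gene lists were chosen with earlier results of these data known. Clusters were named by rule: the 12 with the lowest p for genotype, the 4 largest and 2 smallest differences in each class of WT level, the 3 with most CpGs, the 3 with the largest SD, the 3 lowest p for time and for the interaction, and up to 4 with most CpGs from each of 7 gene lists. Other clusters named in the text were chosen after their values were seen. Some clusters that the rule selects are not reported here.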

Additional observations from a re-analysis of the deposited data

Results flagged for a closer look

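In each group of samples, the highest and lowest sample were compared with the rest by Dixon's test. Over 112 groups examined (14 measures), 12 values stood apart, where chance flags about 1 in 20 groups, or 5.6.

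The pooled level of WT sample 32 at 30 min was 10.5%, and the others of its group lay between 16.5 and 17.7%. The mean over clusters of the same sample was 25.4%, with the others between 27.3 and 27.8%. At Zmynd8, WT sample 1 at rest had 43.5% (others 4.82 to 15.5%) and KO sample 24 at rest had 7.04% (others 0 to 1.92%). At Eef1a1, WT sample 14 at rest had 7.96% (others 2.40 to 3.93%) and WT sample 35 at 10 min had 8.33% (others 2.29 to 3.75%). At Crhr2, WT sample 11 at rest had 44.9% (others 1.65 to 10.0%), WT sample 35 at 10 min had 49.9% (others 3.47 to 9.32%) and KO sample 43 at 30 min had 4.65% (others 0 to 0.94%). At Nfic, WT sample 25 at 60 min had 9.85% (others 3.15 to 5.58%). At Amotl1, KO sample 45 at 10 min had 4.87% (others 0 to 1.06%) and KO sample 33 at 30 min had 5.85% (others 0 to 1.47%). Sample 35 stood apart at both Eef1a1 and Crhr2.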

How the results depend on the processing

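For genotype, 63 clusters were called. The likelihood ratio test of edgeR called 134 (131 lower in KO), the quasi-binomial model 129, limma 92, the fit with sex 64, CpGs with 20 or more reads 55 of 2011 clusters, and the filter on the pooled level 81 of 2193. With at least 20 CpGs per cluster 93 were called and with at least 40, 51. Samples numbered 1 to 25 alone gave 6, samples 26 to 50 alone gave 6 and samples at rest alone gave 0 (173 at an unadjusted p under 0.05), all with fewer samples. Numbers 1 to 25 are the rest and 60 min groups and 26 to 50 the 10 and 30 min groups, so these sets also split the samples by time. Of the 12 clusters with the lowest p, all but those of Unc45b and Tbc1d1 lost their call in either set or both. Nfic also lost it with CpGs at 20 reads (adjusted p = 0.087). Of the 63, 62 were also called by the quasi-binomial model, 63 by the likelihood ratio test and 63 by limma, and 45 of the 56 with CpGs at 20 reads were called there. Leaving out each sample in turn was run in the quasi-binomial model, where the count ran from 117 (without WT sample 14) to 140 (without WT sample 13). The pooled difference of -0.87 points ran from -1.06 to -0.76 over the alternatives that also pooled counts and from -1.10 to -0.69 without one sample. The unweighted mean differed by -1.26 points over clusters and by -0.86 points over CpGs. The difference at Cdc6 was -0.59 on the log2 scale in samples 26 to 50, opposite to that in all samples, and the cause was not tested. Ltbp3, Wbp1l, Tcirg1 and Adgra2 passed with the likelihood ratio test, the quasi-binomial model and limma, and Ltbp3 lost its quasi-binomial call in 19 of 44 runs without one sample. For time and the interaction, 0 were called under each alternative run. No paired analysis was possible because each sample number occurs once and none is shared between groups.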
